A study of Mus musculus with 6 samples.

Results

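The Id genes, BMP ligands and BMP targets described here are Id1, Id2, Id3, Id4, Bmp2, Bmp4, Bmp7, Msx1, Msx2 and Smad6. They were taken by symbol from the table of read counts, and all 10 were found among its 54134 genes. Id2 was the 1 gene of the 10 that changed when Nr6a1 was overexpressed in the mouse tailbud. It rose 1.60-fold in Cdx2P:Nr6a1 embryos, with a 95% interval of 1.42 to 1.80, and both transgenic libraries lay above all 4 wildtype libraries. The other 9 genes did not pass the test, and their groups overlapped.

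RNA-seq was performed on tailbuds of C57BL/6 mouse embryos at E10.5, 1 library per embryo, with 4 wildtype and 2 Cdx2P:Nr6a1 libraries. The stage is that of the labels, and a heading in the study's source data gives an earlier one. The tailbud is the growing caudal end of the embryo, and the dissection took all the tissue behind the last somite. In Cdx2P:Nr6a1 embryos a Cdx2 promoter drives Nr6a1, an orphan nuclear receptor, in the caudal embryo. The comparison asks what sustained Nr6a1 does to the tailbud. These embryos came from pronuclear injection of the DNA, so they are founders with independent integrations rather than animals of 1 line. The study checked the copy number of the transgene in each embryo by droplet digital PCR, but the values are not given. By the labels, embryos negative for the transgene served as wildtype.

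BMP ligands bind pairs of serine/threonine kinase receptors, which phosphorylate Smad1, Smad5 and Smad9, and these enter the nucleus with Smad4. Id genes, Msx genes and Smad6 are well-known direct or early targets. Id proteins have a helix-loop-helix but no DNA-binding domain, and they hold bHLH factors in dimers that cannot bind DNA. In the tailbud and the neural tube BMP activity is known for ventral and lateral mesoderm, the dorsal neural tube and the surface ectoderm.

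Promoters are shown for Id2, the member that rose, and for Id4, whose promoter held the same element. They are from RefSeq on GRCm38.p6, where 7 of the 10 genes were matched (250 bases before to 50 after the start), and Id1, Bmp2 and Bmp7 were not searched. Capitals mark GGCGCC, a GC-rich element of BMP-responsive enhancers, and the E-box CANNTG, the site of bHLH factors. The Id2 stretch is the part of its window that lies in no exon of the deposited gene model, chr12:25096254-25096342, minus strand. In that model it lies in an intron, upstream of the RefSeq start at 25096092. The Id4 stretch is chr13:48260866-48261115, plus strand, just upstream of its RefSeq start.
Id2: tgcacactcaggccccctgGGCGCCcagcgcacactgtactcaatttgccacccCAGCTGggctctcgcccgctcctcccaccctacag
Id4: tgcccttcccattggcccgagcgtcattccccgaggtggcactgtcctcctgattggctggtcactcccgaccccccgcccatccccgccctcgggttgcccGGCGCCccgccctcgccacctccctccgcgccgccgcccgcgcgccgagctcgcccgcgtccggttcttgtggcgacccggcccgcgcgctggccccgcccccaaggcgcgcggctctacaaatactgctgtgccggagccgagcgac

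Searched on both strands of the whole 300-base windows, GGCGCC was found 1 time each in Id2 and Id4, and in none of the windows of Id3, Bmp4, Msx1, Msx2 and Smad6. Of all 32851 mouse promoters in the table, 11.9% held it. The windows of these 7 genes were 60% to 73.3% G and C, against a median of 52.7% over all promoters. The share of 11.9% is therefore not matched for these windows. The E-box was found 1 time in Id2, Msx1, Msx2 and Smad6, 3 times in Bmp4 and 0 times in Id3 and Id4, against 72.3% of all promoters with at least 1. The hexamer AGGTCA, the core of many nuclear receptor sites, and TCAAGGTCA, the longer form bound by Nr6a1, which contains it, had 0 matches in the 7 windows. These were held by 16.3% and 0.423% of all promoters. A match is a match of letters and not a measured site.

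Total counts were between 44073460 and 67183802 per library, and levels are given as CPM, a gene's counts per 1000000 counts of its library. The transgene was read first through Nr6a1, which had 3.91, 5.18, 5.53 and 6.89 CPM in wildtype replicates 1 to 4 and 23.4 and 33.8 CPM in Cdx2P:Nr6a1 replicates 1 and 2. Its log2 fold change was 2.41 ± 0.20 (SE), with an adjusted p of 0.00132 in edgeR's quasi-likelihood test with Benjamini-Hochberg adjustment, the test used for every adjusted p here. The labelled tissue was checked with markers of tailbud progenitors: 8 of 8 passed the filter on low counts, with T (Brachyury) at 975 to 1189 CPM in wildtype. Of the markers of ventral and lateral mesoderm, 1 of 10 passed, and their sum was 3.67 to 5.66 CPM in wildtype and 3.36 and 11.03 CPM in Cdx2P:Nr6a1 libraries.

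Per kb of exon, the scale on which genes can be compared, wildtype levels ran from Id1 at 85.1 ± 20.4 CPM per kb to Id4 at 0.667 ± 0.042 (SD, n = 4). Id3 followed Id1 with 51.3 ± 8.41 CPM per kb, Msx1 had 25.8 ± 2.40 and Bmp7 had 17.0 ± 1.12, and the ranges of these neighbours did not overlap. Id2 was next with 10.1 ± 0.796 CPM per kb. Msx2 had 9.42 ± 0.787, Smad6 8.40 ± 0.723, Bmp2 6.04 ± 1.45 and Bmp4 4.45 ± 0.914 CPM per kb, and from Id2 to Bmp4 each range overlapped the next. In Cdx2P:Nr6a1 libraries Id2 stood at 16.2 ± 0.141 CPM per kb (SD, n = 2), where Bmp7 had 15.2 ± 1.53.

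**Figure D1:**
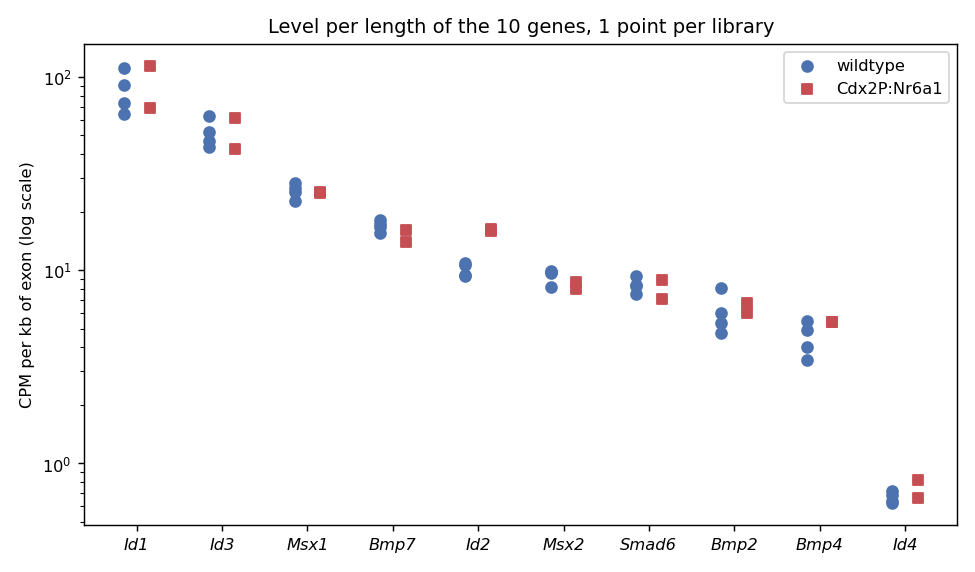
Level of each of the 10 genes in CPM per kb of exon on a log axis, with 1 point per library (circles, wildtype, n = 4, and squares, Cdx2P:Nr6a1, n = 2), ordered by the wildtype mean. Id1 is highest at 85.1 and Id4 lowest at 0.667 CPM per kb in wildtype.

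All 10 genes passed the filter, and 1 was called at an adjusted p under 0.05, where 1.59% of the 12733 genes tested were called and 0.785% were called higher. The groups did not overlap for that 1 gene, Id2, and for 18.6% of all genes tested. Both transgenic libraries lay above all wildtype libraries for 10.1% of the genes tested and below them for 8.48%. Of the 10, 6 had a positive and 4 a negative log2 fold change, with a median of 0.04, and the median over all genes tested was -0.0007. In whole tailbuds, fewer cells of a type and less RNA per cell cannot be told apart.

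Id2 (chr12:25093799-25097140, minus strand), a dominant-negative partner of bHLH factors that delays differentiation in many lineages, had 26.0, 22.8, 26.6 and 23.1 CPM in wildtype replicates 1 to 4. It had 39.7 and 39.2 CPM in Cdx2P:Nr6a1 replicates 1 and 2. Both transgenic libraries thus lay above the highest wildtype library and within 1 CPM of each other. The means were 24.6 ± 1.94 CPM (SD, n = 4) and 39.5 ± 0.343 CPM (SD, n = 2), and the log2 fold change was 0.67 ± 0.08 (SE). The adjusted p was 0.00471 by edgeR's quasi-likelihood test with Benjamini-Hochberg adjustment. Over 19 other analyses of the same libraries the log2 fold change of Id2 stayed between 0.64 and 0.71. Its adjusted p by the same test was 0.0578 without Cdx2P:Nr6a1 replicate 1, which leaves 1 transgenic library, and 0.0554 without both libraries numbered 1. Id2 is among the neural genes that the study shows for these libraries, a list it took from single-cell data and cut to genes that passed its own test here, so its rise is not independent of its place on that list.

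Id1 (chr2:152736251-152737410, plus strand), the member most often used as a BMP readout, had 129, 85.3, 106 and 75.2 CPM in wildtype and 133 and 79.9 CPM in Cdx2P:Nr6a1 libraries. The highest and the second-lowest of the 6 values were therefore the transgenic pair. The log2 fold change was 0.10 ± 0.23 (SE), with a 95% interval of -0.42 to 0.62 and an adjusted p of 0.956 in edgeR's quasi-likelihood test. Leaving out 1 library at a time moved it from -0.31 to 0.42.

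Id3 (chr4:136143497-136145755, plus strand), which acts redundantly with Id1 in many embryonic tissues, had 113, 78.1, 92.8 and 84.1 CPM in wildtype and 110 and 76.2 CPM in Cdx2P:Nr6a1 libraries. Its lowest library and its second-highest were transgenic. The log2 fold change was 0.01 ± 0.16 (SE), with an interval of -0.36 to 0.38 and an adjusted p of 0.991 (edgeR's quasi-likelihood test). It lay between -0.27 and 0.25 as single libraries were left out.

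Id4 (chr13:48261228-48266026, plus strand), the Id gene best known from neural progenitors, was the lowest of the 10. It had 2.64, 2.76, 2.47 and 2.40 CPM in wildtype and 3.18 and 2.55 CPM in Cdx2P:Nr6a1 libraries, from 108 to 171 counts per library. One transgenic library was above and the other within the wildtype range. Counting error alone gives a coefficient of variation of 8.69% at this depth, and that between wildtype libraries was 6.34%. The log2 fold change was 0.14 ± 0.16 (SE) with an interval of -0.22 to 0.50 and an adjusted p of 0.881 (edgeR's quasi-likelihood test). Of its exon bases, 4.44% are shared with A330033J07Rik and Gm49291, whose reads may not be separable.

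The Id genes were then compared with each other within each library. Id2 minus the mean of Id1, Id3 and Id4, in log2 CPM, was -0.38, -0.21, -0.12 and -0.10 in wildtype replicates 1 to 4 and 0.14 and 0.65 in Cdx2P:Nr6a1 replicates 1 and 2. The groups did not overlap, and the difference was 0.60. An exact permutation test, two-sided, gave p = 0.0667, the smallest p that 4 against 2 libraries allow, so no p under 0.05 could be reached. With single libraries left out the difference was between 0.35 and 0.86. Id2 is the called member, so this contrast is not independent of its call.

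**Figure D2:**
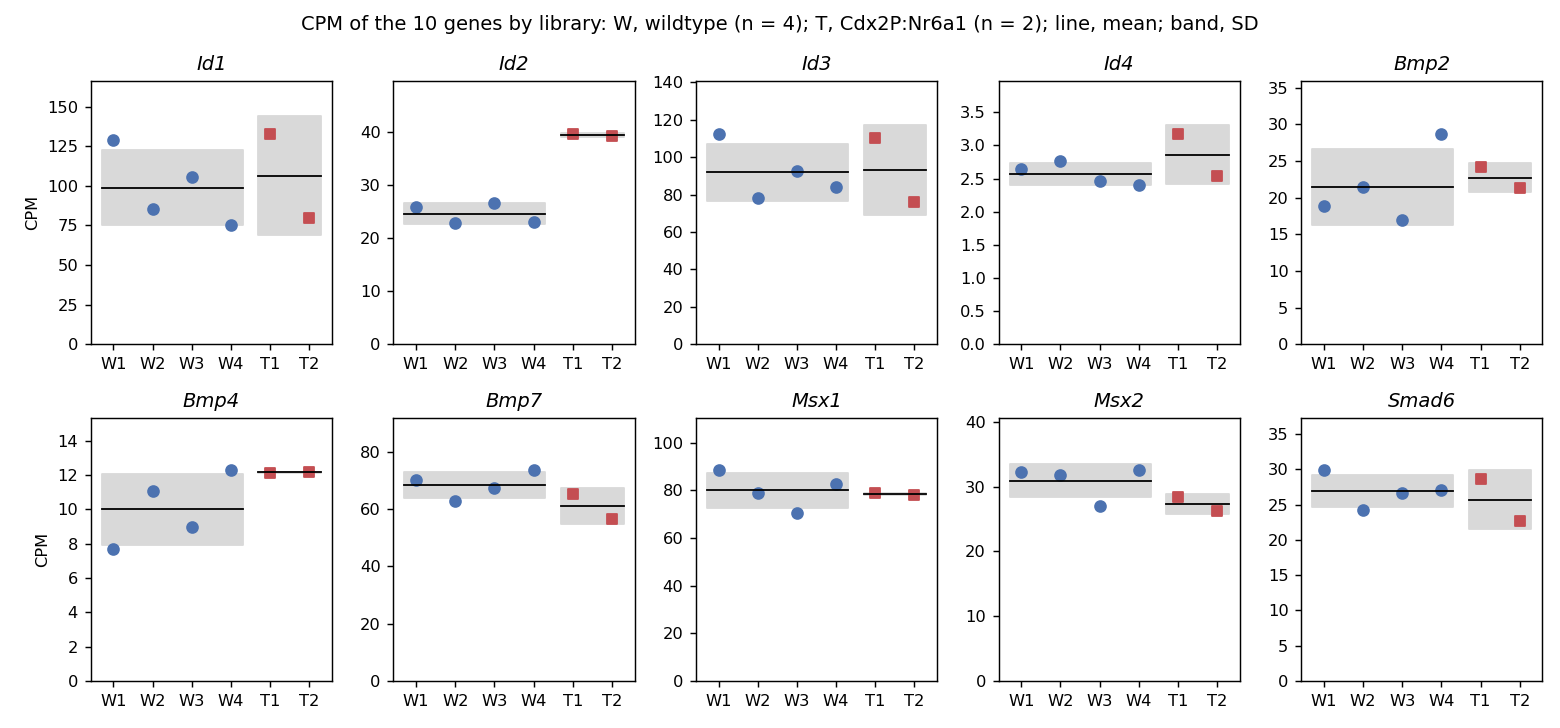
CPM of each of the 10 genes in every library, with the y axis from 0, circles for wildtype (W1 to W4, n = 4), squares for Cdx2P:Nr6a1 (T1 and T2, n = 2), lines for group means and bands for the SD. Id2 is the panel in which both squares, at 39.7 and 39.2 CPM, stand above all circles, and in the panels of Id1 and Id3 the squares are spread across the wildtype range or close to it.

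Among the ligands, Bmp2 (chr2:133552159-133562885, plus strand) had 18.9, 21.4, 16.9 and 28.7 CPM in wildtype and 24.1 and 21.3 CPM in Cdx2P:Nr6a1 libraries. Both transgenic values lay inside the wildtype range. Its log2 fold change was 0.08 ± 0.18 (SE), with an adjusted p of 0.956 (edgeR's quasi-likelihood test).

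Bmp4 (chr14:46383520-46390669, minus strand), the ligand of ventral mesoderm and surface ectoderm, had 7.69, 11.05, 8.98 and 12.3 CPM in wildtype. It had 12.1 and 12.2 CPM in Cdx2P:Nr6a1 libraries, both under the highest wildtype library and above the other 3. Bmp4 had a log2 fold change of 0.28 ± 0.17 (SE), with an interval of -0.10 to 0.65 and an adjusted p of 0.671 in edgeR's quasi-likelihood test. Of its exon bases, 3.96% are shared with Gm15217.

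Bmp2 and Bmp4 were both highest, among wildtype, in replicate 4. The summed level of the 10 surface ectoderm markers was also highest there, at 278 CPM in a wildtype range of 195 to 278, and it was 255 and 290 CPM in the Cdx2P:Nr6a1 libraries. Among wildtype, replicate 4 also had the highest sums of gut endoderm, somite and neural tube markers, at 617, 46.9 and 40.2 CPM. The part of these cell types in the ligand values was not tested.

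Bmp7 (chr2:172868012-172940321, minus strand), the most abundant of the 3 ligands, had 70.2, 62.8, 67.4 and 73.5 CPM in wildtype and 65.3 and 56.6 CPM in Cdx2P:Nr6a1 libraries. One transgenic library was below all wildtype libraries and the other was not. For Bmp7 the log2 fold change was -0.17 ± 0.08 (SE), with an interval of -0.35 to 0.0008 and an adjusted p of 0.477 by edgeR's quasi-likelihood test.

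Msx1 (chr5:37820485-37824583, minus strand), a homeobox repressor induced by BMP, had 88.3, 78.6, 70.5 and 82.4 CPM in wildtype and 78.8 and 78.2 CPM in Cdx2P:Nr6a1 libraries. The transgenic pair lay in the middle of the wildtype values. The log2 fold change was -0.03 ± 0.08 (SE), with an interval of -0.22 to 0.15 and an adjusted p of 0.960 in edgeR's quasi-likelihood test.

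Msx2 (chr13:53466884-53473074, minus strand), its paralog, had 32.2, 31.8, 27.1 and 32.5 CPM in wildtype and 28.4 and 26.3 CPM in Cdx2P:Nr6a1 libraries. The lowest library was transgenic, and wildtype replicate 3 lay between the transgenic pair. For Msx2 the log2 fold change was -0.18 ± 0.08 (SE), with an interval of -0.37 to 0.01 and an adjusted p of 0.507 in edgeR's quasi-likelihood test.

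Smad6 (chr9:63953076-64022059, minus strand), the inhibitory Smad that BMP induces as feedback, had 29.9, 24.2, 26.6 and 27.1 CPM in wildtype and 28.7 and 22.7 CPM in Cdx2P:Nr6a1 libraries. The transgenic values were the lowest and the second-highest of the 6. For Smad6 the log2 fold change was -0.08 ± 0.11 (SE), with an interval of -0.32 to 0.17. In wildtype the mean log2 CPM of the 3 ligands was below that of the Msx genes, with a difference of -1.03 ± 0.20 (SD, n = 4), and the Cdx2P:Nr6a1 libraries had -0.86 ± 0.05 (SD, n = 2). The shift of 0.18 gave p = 0.333 in an exact permutation test, two-sided.

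The 10 genes differed in how much they varied between wildtype embryos. The coefficient of variation of CPM was 24.1% for Bmp2, 20.6% for Bmp4 and 16.4% for Id3, with Id1 just under Bmp2, against a median of 5.85% over all genes tested. These were above the counting error of each gene, which was 4.42% for Bmp4 and less for the others. It was between 6.34% and 9.31% for the other 6 genes, Id2 among them at 7.88%. Intervals for Id1, Id3, Bmp2 and Bmp4 were the widest of the 10 genes, and that of Id1 reached from -0.42 to 0.62.

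Id1 and Id3 varied together across libraries. Their profiles, as log2 CPM minus the wildtype mean, differed by a root mean square of 0.14 over the 6 libraries, which made Id3 the 8th nearest of 12732 genes to Id1, whereas Id2 was the 11573rd. From Id3, Id1 was the 114th nearest. The rank of Id2 includes the Cdx2P:Nr6a1 libraries, so it restates the rise of Id2. In wildtype replicates 1 to 4 Id2 was at 0.08, -0.11, 0.12 and -0.09, with the same signs as Id1. Id1 and Id3 were both highest in the 2 libraries numbered 1, with Id1 at 129 and 133 CPM there. Genes chosen after their values were seen were highest in the same pair of libraries. Lfng, a cyclic Notch modifier of presomitic mesoderm, had 241, 44.7, 120 and 47.0 CPM in wildtype and 224 and 66.3 CPM in Cdx2P:Nr6a1 libraries. Hes7, a cyclic repressor of the segmentation clock, had 121, 54.0, 69.5 and 65.8 CPM in wildtype and 117 and 41.9 CPM in Cdx2P:Nr6a1 libraries. Atoh8, a bHLH factor induced by BMP, had 13.4 CPM in wildtype replicate 1 and 12.9 CPM in Cdx2P:Nr6a1 replicate 1, and 6.20 to 8.45 CPM in the other 4. These are descriptions over 6 libraries, and all genes of a library share its depth and dissection.

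With Lfng as a covariate, the log2 fold change of Id2 stayed within the range given above, and those of Id1 and Id3 were -0.06 and -0.10. The genes nearest to Id2 in profile were Vamp5, Lrrc15 and Sema3a, with root mean square differences of 0.078, 0.083 and 0.086 (log2) over the 6 libraries. Sema3a, a repulsive axon guidance ligand, had a mean of 21.2 CPM in wildtype and 31.4 CPM in Cdx2P:Nr6a1. This nearness uses the same libraries as the test of Id2.

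**Figure D3:**
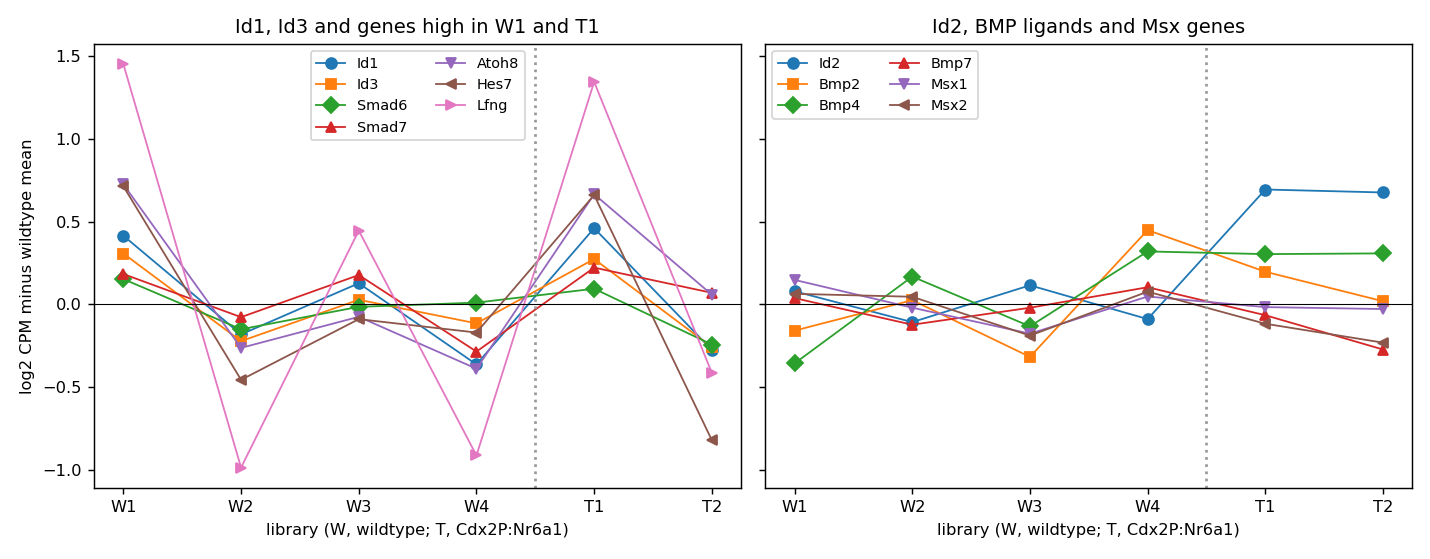
Log2 CPM minus the wildtype mean in each library (W1 to W4, wildtype, n = 4, and T1 and T2, Cdx2P:Nr6a1, n = 2) for Id1, Id3 and genes high in the same libraries (left) and for Id2, the BMP ligands and the Msx genes (right), with lines joining the points of a gene only to guide the eye. Id1 is 0.41 in W1 and 0.46 in T1 but -0.27 in T2, whereas Id2 is 0.69 in T1 and 0.68 in T2.

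The wider pathway was read from 7 lists with 109 genes of the table described here, of which 67 passed the filter. Of these, 1 was called (1.49%), Id2, against 1.59% of all genes tested (0.785% called higher and 0.809% lower). With DESeq2 6 of the 67 were called, where it called 3.75% of all genes tested. In edgeR, both the likelihood ratio and the exact test called 5, against 3.15% and 3.07% of all genes tested. The groups did not overlap for 18 of the 67 (26.9%), where 18.6% of all genes tested were apart. An unadjusted p under 0.05 was reached by 16 (23.9%), and by 10.54% of all genes tested. A count of this kind is a description of the lists, which were not tested as sets.

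Of 14 BMP ligands, 6 passed the filter and 0 were called, with a median log2 fold change of 0.16. An unadjusted p under 0.05 in edgeR's quasi-likelihood test was reached by 0 of the 6, and DESeq2, edgeR's other tests and voom called 0 of them. The same tools called 0 receptors and 0 antagonists. Bmp5 had the next-largest value after Bmp4, at 0.24 ± 0.13 (SE).

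Of the receptors and co-receptors, 10 passed and 0 were called, with a median of 0.02, and 1 had an unadjusted p under 0.05. That was Bmpr1b, a type I receptor, with 7.95, 8.13, 8.74 and 8.47 CPM in wildtype and 6.35 and 6.88 CPM in Cdx2P:Nr6a1 libraries. The transgenic pair lay below all wildtype libraries, at a log2 fold change of -0.34 ± 0.10 (SE) and an adjusted p of 0.167 (edgeR's quasi-likelihood test). Bmpr2, the type II receptor, had a log2 fold change of -0.14 ± 0.06 (SE).

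Of 20 extracellular antagonists and modulators, 13 passed and 0 were called, with a median of 0.09. An unadjusted p under 0.05 was reached by 2 of them, Bmper and Chrdl1. Bmper, which binds BMPs outside the cell, had 16.7, 13.6, 15.9 and 14.8 CPM in wildtype and 22.6 and 17.0 CPM in Cdx2P:Nr6a1 libraries, with an adjusted p of 0.298 (edgeR's quasi-likelihood test). Its log2 fold change was 0.37 ± 0.13 (SE), and that of Nbl1, a secreted antagonist near the filter limit, was 0.41 ± 0.20 (SE).

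Of 11 Smads and their intracellular regulators, 10 passed and 0 were called, with a median of 0.08, and 2 had an unadjusted p under 0.05. Smad5, a BMP-activated Smad, had 265, 268, 273 and 266 CPM in wildtype and 238 and 238 CPM in Cdx2P:Nr6a1 libraries. Both transgenic libraries were below all wildtype libraries by a small margin, with a log2 fold change of -0.18 ± 0.04 (SE) and an adjusted p of 0.0835 in edgeR's quasi-likelihood test. Smad5 was called by DESeq2. Smad7, an inhibitory Smad, had a log2 fold change of 0.13 ± 0.14 (SE).

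Of 19 BMP target genes, 15 passed and 1 was called, Id2, with a median of 0.10, and 4 had an unadjusted p under 0.05. Tbx3, a T-box repressor, had 14.97, 10.46, 10.9 and 11.2 CPM in wildtype and 7.44 and 7.16 CPM in Cdx2P:Nr6a1 libraries. Its transgenic pair lay below all wildtype libraries, in the direction opposite to Id2. Tbx3 had a log2 fold change of -0.71 ± 0.16 (SE) with an adjusted p of 0.0682 by edgeR's quasi-likelihood test, and it passed the threshold in 8 of 19 other analyses.

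Of 24 partners of Id proteins and other bHLH factors, 7 passed and 0 were called, with 6 of 7 values negative and a median of -0.34. An unadjusted p under 0.05 was reached by 5. Most of the list was below the filter, so these values do not stand for all of it. Neurog2, below the filter, went the other way, with 0.061 to 0.22 CPM in wildtype and 0.64 and 0.86 CPM in Cdx2P:Nr6a1 libraries. It was called with edgeR's filterByExpr and without a filter. Twist2, a mesodermal bHLH factor, had 3.11, 4.05, 3.93 and 3.29 CPM in wildtype and 2.43 and 2.16 CPM in Cdx2P:Nr6a1 libraries, with an adjusted p of 0.106 (edgeR's quasi-likelihood test). Olig3, a bHLH factor of dorsal neural progenitors, had 3.36, 3.42, 1.70 and 2.38 CPM in wildtype and 1.13 and 1.46 CPM in Cdx2P:Nr6a1 libraries, with an adjusted p of 0.174 by the same edgeR test. Both are close to the filter limit of 2 CPM, and Olig3 passed it only through wildtype libraries. Olig3 was called by DESeq2 and by the likelihood ratio and exact tests of edgeR, Twist2 by the latter pair of tests. Tcf4, an E protein that binds Id proteins, was also called by DESeq2, with 193, 195, 198 and 179 CPM in wildtype and 172 and 166 CPM in Cdx2P:Nr6a1 libraries. Its log2 fold change was -0.19 ± 0.05 (SE), and the adjusted p was 0.155 by edgeR's quasi-likelihood test. Msgn1, a bHLH factor of presomitic mesoderm, had a log2 fold change of -0.43 ± 0.17 (SE) and an adjusted p of 0.392 by that edgeR test, and was called with the replicate block, with Lfng as a covariate and without a filter.

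Of 18 genes of the dorsal neural tube and roof plate described here, 10 passed, with a median of -0.01, and the quasi-likelihood test of edgeR called 0. An unadjusted p under 0.05 was reached by 3 of the 10, and DESeq2 and edgeR's likelihood ratio and exact tests each called 2, Olig3 and Zic2. Olig3 was lower and Zic2 higher. Zic2 had 26.9 to 30.6 CPM in wildtype and 35.8 and 34.8 CPM in Cdx2P:Nr6a1 libraries, at a log2 fold change of 0.28 ± 0.06 (SE). Pax7, a paired-box factor of the dorsal neural tube, had 1.77, 1.20, 2.20 and 1.33 CPM in wildtype and 2.61 and 2.50 CPM in Cdx2P:Nr6a1 libraries. Its transgenic pair lay above all wildtype libraries, at levels close to the filter limit. In wildtype only replicate 3 was over that limit, so Pax7 passed the filter through the Cdx2P:Nr6a1 libraries. The log2 fold change was 0.64 ± 0.25 (SE), with an adjusted p of 0.368 in edgeR's quasi-likelihood test.

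**Figure D4:**
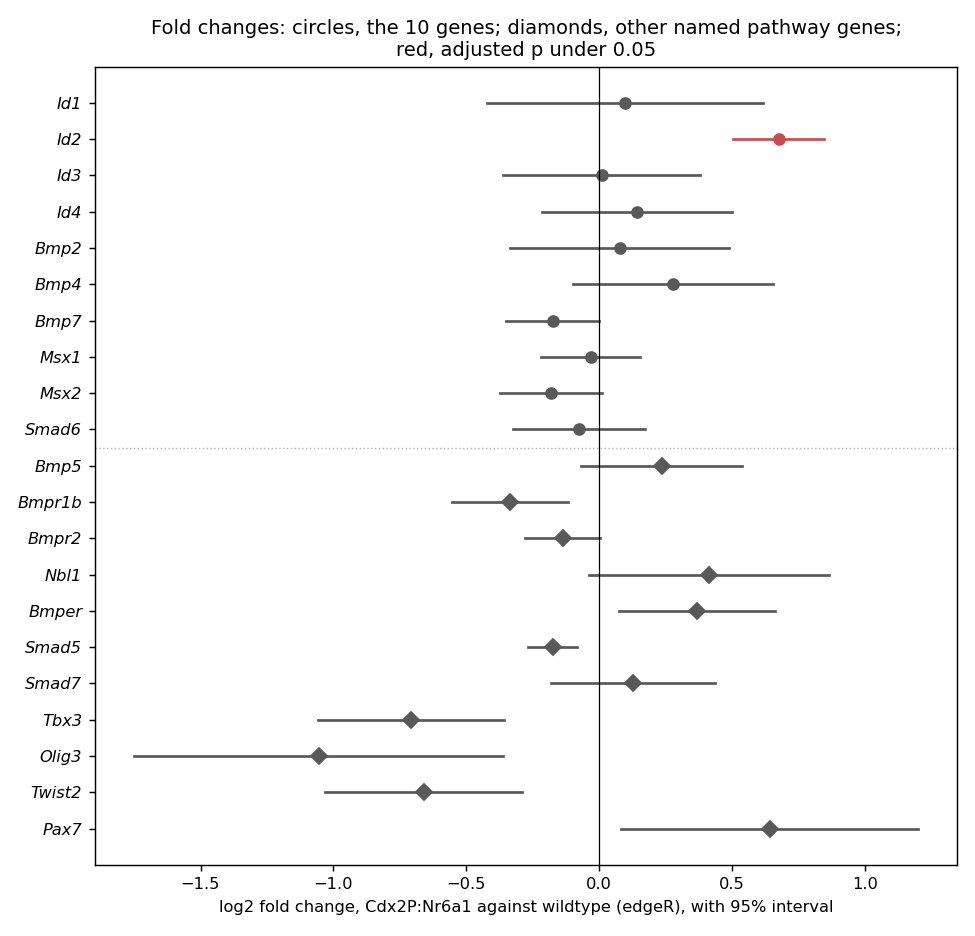
Log2 fold change of Cdx2P:Nr6a1 (n = 2) against wildtype (n = 4) from edgeR, with 95% intervals, for the 10 genes (circles, above the dotted line) and the other named pathway genes (diamonds), with red for an adjusted p under 0.05. Id2 at 0.67 is the 1 gene in red, and the intervals of the other 9 members include 0.

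Of the neural tube markers, Sox1 and Sox3 rose as Id2 did. The summed level of the 12 neural tube markers was 32.6 to 40.2 CPM in wildtype and 46.1 and 58.6 CPM in Cdx2P:Nr6a1 libraries. Most of that sum was Sox2, with 24.8 to 30.8 CPM in wildtype and 28.9 and 34.8 CPM in Cdx2P:Nr6a1 libraries. The groups of Sox2 overlapped, and its adjusted p was 0.653 (edgeR's quasi-likelihood test). Of the 12, 3 passed the filter, Olig2 was at 0 in every library, and Sox1 and Sox3 were called higher. Sox1 had 0.89 to 1.41 CPM in wildtype and 2.95 and 5.09 CPM in Cdx2P:Nr6a1 libraries. It thus passed the filter of 2 CPM only through the group where it was high, and its call is no separate support. Sox3, a SoxB1 factor of neural progenitors, had 4.23 to 5.87 CPM in wildtype and 10.7 and 14.8 CPM in Cdx2P:Nr6a1 libraries. Unlike Id2, whose transgenic libraries were alike, Sox3 and Nr6a1 were higher in replicate 2 than in replicate 1.

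The sums of 3 other lists with a called gene had 1 Cdx2P:Nr6a1 library outside the wildtype range and the other inside it. The sum of 11 gut endoderm markers was 497 to 617 CPM in wildtype and 728 and 612 CPM in Cdx2P:Nr6a1 libraries, and Krt18 was called higher. That of 8 tailbud progenitor markers was 1967 to 2238 CPM in wildtype and 2491 and 2091 CPM in Cdx2P:Nr6a1 libraries, with Cdx2 and Cyp26a1 called higher. The sum of the 10 presomitic mesoderm markers was 1459 to 1786 CPM in wildtype and 1556 and 1354 CPM in Cdx2P:Nr6a1 libraries, and Cited1 was called lower. For the markers of somite, notochord, surface ectoderm, endothelium, erythroid cells and macrophages, at least 1 Cdx2P:Nr6a1 library had a sum inside the wildtype range. Erythroid markers had 8377 to 20352 CPM in wildtype and 10145 and 13984 CPM in Cdx2P:Nr6a1 libraries, and macrophage markers 16.0 to 37.7 CPM and 18.1 and 53.4 CPM. Of the 53.4 CPM, Lyz2 made up 28.7 CPM, and the other 7 macrophage markers summed to 24.6 CPM in that library. The part of these cell types in the rise of Id2 was not tested.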

How the data were processed

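Tailbuds of 6 embryos were sequenced as polyA-selected stranded libraries, and replicates are separate embryos. The authors deposited raw counts per gene for each library, together with exon coordinates. STAR, edgeR and the build mm10 are named in the submitters' processing notes, and the counting program and its use of strand are not given in the sources used here, so reads of overlapping genes may not be separable. A deposited table of the authors' fold changes, p-values, FDR and CPM was not used. The table has 2 gene names that occur more than once.

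Groups were taken from the genotype labels, with no sample left out. A gene entered the test when 2 or more libraries had both over 10 counts and over 2 CPM, libraries were scaled by TMM, and genotypes were compared by the quasi-likelihood test of edgeR 4.0.16 in R 4.3.3 without covariates, fitted to all genes passing the filter, with Benjamini-Hochberg adjustment. A gene was called at an adjusted p under 0.05. CPM was computed from column totals. Contrasts within a library used log2 CPM with no pseudocount (0.5 CPM as an alternative) and an exact permutation test. The other analyses were 17 planned ones (edgeR's likelihood ratio and exact tests, DESeq2 1.42.0, voom of limma 3.58.1, other scaling, filters and covariates, each library left out in turn) and 2 chosen after seeing the data. The method was tested on simulated data. Plots used matplotlib 3.10.9 in Python 3.11.15.

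The 10 genes and the lists (7 of the pathway and 11 of cell type markers) were chosen with earlier results of these data known. A gene of these lists is not reported here and is in no count of them, though it stayed in the fit. Genes named are the 10, Nr6a1, pathway genes called, those of largest change in each pathway list, the 3 nearest in profile to a called member, and defining markers. Lfng, Hes7, Atoh8, Chrdl1, Gata2, Dlx6, Zic2, Tcf4, Msgn1, Neurog2, Sox2 and Lyz2 were named after their values were seen.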

Additional observations from a re-analysis of the deposited data

Results flagged for a closer look

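In groups of 4 libraries, a value whose gap to its nearest neighbour takes up most of the range stands apart, and chance alone gives this in about 1 group in 20. Among the named genes it was met 2 times in wildtype. Msx2 was lowest in wildtype replicate 3, at 27.1 CPM, with a gap of 0.874 of the range, and that library lay between the 2 Cdx2P:Nr6a1 values. Tbx3 was highest in wildtype replicate 1, at 14.97 CPM, with a gap of 0.839 of the range, and the other 3 wildtype libraries, at 10.46 to 11.2 CPM, were still above both Cdx2P:Nr6a1 libraries.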

How the results depend on the processing

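The count of genes called was 203 in the analysis reported, 401 with the likelihood ratio test, 391 with the exact test of edgeR, 477 with DESeq2, 876 without a filter, 442 with the replicate block, 91 without both libraries numbered 1, and 61 to 175 with each library left out. Of the 10 genes, 0 were called without both libraries numbered 1 and 0 to 1 with each library left out (0 without Cdx2P:Nr6a1 replicate 1). Of the pathway genes, 1 was called in the analysis reported, 5 with edgeR's likelihood ratio test and 5 with its exact test, 6 with DESeq2, 11 without a filter, 2 with filterByExpr, 2 with robust estimation, 4 with the replicate block, 0 without both libraries numbered 1, 3 with Lfng as a covariate and 0 to 2 with each library left out (0 without Cdx2P:Nr6a1 replicate 1). Directions turned only for genes that were not called. The log2 fold change of Id1 was -0.031 with the replicate block, -0.15 without both libraries numbered 1, -0.062 with Lfng as a covariate and -0.31 to 0.42 with each library left out. That of Id3 was -0.0097 with voom, -0.0022 with filterByExpr, -0.042 with the replicate block, -0.16 without both libraries numbered 1, -0.10 with Lfng as a covariate and -0.27 to 0.25 with each library left out. Without both libraries numbered 1, Id4 was -0.00042, Bmp2 -0.065 and Msx1 0.019, and Msx1 was 0.0071 with Y-linked expression as a covariate. With each library left out, Id4 ranged from -0.013 to 0.29, Bmp2 from -0.029 to 0.24, Msx1 from -0.094 to 0.018 and Smad6 from -0.25 to 0.080. The cause of these shifts was not tested. The replicate numbers mark no stated pairing, and the deviations of same-numbered libraries correlated at 0.11 for number 1 and -0.0071 for number 2. Wildtype replicate 4 and Cdx2P:Nr6a1 replicate 2 correlated at 0.15. The deviations of the 2 Cdx2P:Nr6a1 libraries mirror each other, so these values cannot decide whether libraries were paired. With 1 Cdx2P:Nr6a1 library left, it is assumed to vary like wildtype. The median of all genes moved by less than 0.01 (log2) under every setting. With 4 against 2 libraries, the intervals of Id1, Id3, Bmp2 and Bmp4 allow changes that could not be detected.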
